A study of Mus musculus with 6 samples.

Results

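Semaphorins are secreted or membrane-bound guidance proteins, and plexins and neuropilins are their receptors. All gene symbols of the deposited table that begin with Sema3 to Sema7 or with Plxna to Plxnd, together with Nrp1 and Nrp2, were taken, which gave 32 of 24419 symbols. They comprised 20 semaphorin ligands, 11 receptors (9 plexins and both neuropilins) and 1 antisense RNA, Plxna4os1, which lies on the opposite strand inside Plxna4.

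RNA was sequenced from peri-infarct cortex cells of male mice, sorted with the aim of enriching neurons. The cells were taken 4 days after the middle cerebral artery had been blocked for 60 minutes (MCAO, a stroke model). The group labelled cKO carried Slc17a7-cre, Slc32a1-cre and Padi4flox/flox and had 3 libraries. The group labelled control carried Padi4flox/flox without a named Cre and also had 3 libraries. Padi4 encodes an enzyme that converts arginine residues of proteins, histones included, to citrulline. All mice thus carried the floxed allele and all had the stroke, and no sham or uninjured cortex is part of the comparison. Slc17a7 and Slc32a1 are genes of glutamatergic and GABAergic neurons, so the Cre alleles address neurons and not the glial or vascular cells that a sort may carry along. Cells were kept when positive for Thy1 and negative for the astrocyte, endothelial, leukocyte and oligodendrocyte surface marks ACSA2, CD31, CD45 and O4.

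A semaphorin binds the large extracellular part of a plexin, whose intracellular part acts on small GTPases and through them on the cytoskeleton of the growth cone. Most secreted class 3 semaphorins need a neuropilin as the binding partner of a class A plexin, whereas membrane-bound semaphorins of classes 4 to 7 mostly bind plexins directly. In the adult brain the family is known for its part in axon growth after injury, in the migration of oligodendrocyte precursors and in vessel growth.

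Recovered depth was 10094145 to 24056755 reads per library, and 14042 to 17891 genes had a read. Padi4 itself went against the labels, with 0, 3 and 12 reads in the libraries labelled cKO replicates 1, 2 and 3 and 0 reads in each library labelled control. This was 0.273 CPM (read counts scaled to library depth) over the libraries labelled cKO (exact Poisson 95% interval 0.153 to 0.450) and 0 CPM over those labelled control (0 to 0.0874). Reads were counted over the whole gene, and which exons the floxed allele removes is not stated in the labels. Because of this, cKO and control stand throughout for the labels of the libraries. The libraries also differed in the cells they held. All 12 neuron markers were detected in every library, with summed levels of 1054 to 6658 in cKO and 2375 to 3324 in control libraries, and Snap25 ran from 384 to 2619. The 12 markers of oligodendrocytes, a cell type that the O4 step is meant to exclude, were also detected in every library. They summed to 11403 to 33017 in cKO and 22095 to 27632 in control libraries, with Mbp at 1307 to 4456. In every library this sum was above that of the neuron markers. The sums cover different genes and are not divided by length, so they do not give shares of cells. The 10 astrocyte markers, all detected in every library, summed to 822 to 1827 in cKO and 579 to 1065 in control libraries. Of 13 mural cell and fibroblast markers 12 were detected everywhere (Lum was at 0 in at least 1 library), and their sum ran from 263 to 3121 in cKO and from 497 to 5116 in control libraries. The 10 endothelial markers summed to 106 to 139 in cKO and 46.6 to 145 in control libraries, with Cldn5, Tie1 and Emcn at 0 in at least 1 library. The 10 microglial and macrophage markers summed to 18.2 to 59.0 in cKO and 27.0 to 50.9 in control libraries, with C1qa, C1qc, Tmem119 and Ptprc at 0 in at least 1 library. Oligodendrocyte precursor markers, 7 of 7 detected, summed to 1413 to 2302 in cKO and 1813 to 2004 in control libraries. The 6 ependymal and choroid plexus markers summed to 11.2 to 35.9 in cKO and 3.83 to 10.4 in control libraries, without overlap, with Ccdc153, Tmem212, Dynlrb2 and Ttr at 0 in at least 1 library. The neutrophil and lymphocyte markers in the table, 5 of 6, summed to at most 3.03 in cKO and 3.11 in control libraries, and each was at 0 in at least 1 library. The part of this cell makeup in the values given here was not tested, and in such bulk libraries fewer cells of a type and less RNA per cell cannot be told apart.

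Levels are given in the deposited unit, a rescaled CPM (scaled CPM), and between genes only after division by the exon length of the gene in kb. Per kb, Plxnb3 had the highest mean of the receptors over the 6 libraries and Sema6d the highest mean of the ligands, but neither led in every library. In cKO replicate 2 Sema6d, at 21.1 scaled CPM per kb, stood below Sema6a at 39.5, and in cKO replicate 3, at 24.0, below Sema7a at 36.4. In cKO replicate 3 Plxnb3 and Plxna1 were nearly level, at 24.2 and 24.7. Plxnb3, a receptor of Sema5a, averaged 50.4 ± 18.7 scaled CPM per kb over the 6 libraries and made up 35.9% of the summed receptor level (18.2% to 55.5% by library). It was followed by Plxna1 (16.7 ± 5.88), Plxnd1 (16.4 ± 7.30) and Plxnb2 (12.6 ± 2.65 scaled CPM per kb). Of the ligands, Sema6d averaged 38.4 ± 18.8, Sema6a 28.8 ± 8.71, Sema7a 25.1 ± 7.82, Sema4d 21.3 ± 4.32 and Sema3d 17.3 ± 6.43 scaled CPM per kb (SD, n = 6). These 5 ligands made up 19.2%, 14.4%, 13.0%, 10.7% and 8.55% of the summed ligand level, and the share of Sema6d ran from 9.24% to 29.9% by library. The neuropilins stood at the low end of the receptors, with Nrp1 at 2.82 ± 2.04 and Nrp2 at 1.96 ± 0.816 scaled CPM per kb, or 2.09% and 1.42% of the receptor sum. The ligand with the lowest level was Sema3g, with 2, 0 and 4 reads in cKO and 2, 0 and 2 reads in control libraries. In this order of levels 28 of 31 neighbouring pairs lay closer to each other than their spread over libraries, and the exceptions were Sema5b above Sema3e, Nrp2 above Sema3b and Plxna4os1 above Sema3g. Within libraries 3 neighbouring pairs kept their order in all 6, among them Plxnb3 above Sema6d, and 6 more did so in 5 of 6. The plot of levels per kb by library shows this order.

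**Figure D1:**
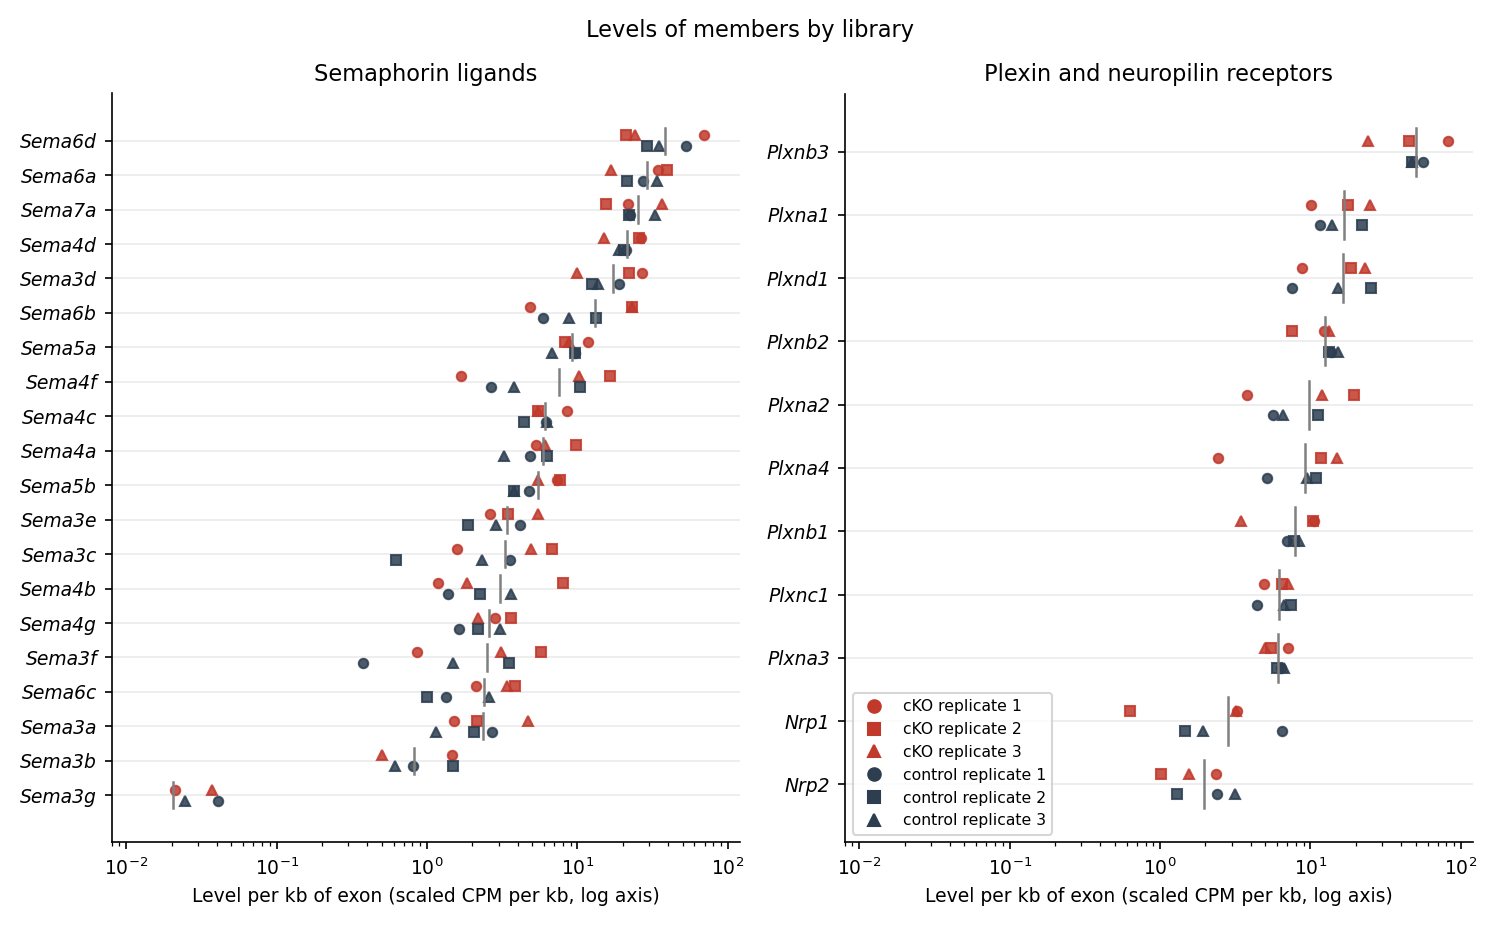
Level of each ligand (left) and receptor (right) per kb of exon, in scaled CPM per kb on a log axis, with 1 point per library (cKO in red above, control in dark blue below) and a grey line at the mean of 6 libraries; values of 0 are not drawn. Plxnb3 and Sema6d head their panels, with means of 50.4 and 38.4, and the neuropilins stand lowest among the receptors.

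Between cKO and control, 0 of 31 tested members passed the test, limma at a Benjamini-Hochberg adjusted p under 0.05, as did 0 of 14796 genes tested (0.0%). The smallest adjusted p of a member was 0.9996. By edgeR 0 genes were called over the whole table, and by DESeq2 7 (0.0364%), none of them a member. At an unadjusted p under 0.05 limma had 0 members, against 126 genes or 0.852% of all tested. The same count of members was 0 by edgeR (0.566% of all genes) and 0 by DESeq2 (2.03%). Members whose libraries did not overlap between the labels numbered 2, against 4.7% of all tested genes. Sema5b had every cKO library above every control library, as did 2.45% of all genes, and Plxnb2 had every cKO library below, as did 2.26%. Whether each library was made from its own mice is not stated, so p-values measure only the spread between these libraries. With 3 libraries against 3, an exact permutation test of a single gene cannot go below 0.1. All intervals of the fold changes held 0, as the plot of fold changes shows, and a p that misses the threshold does not show that levels were alike.

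**Figure D2:**
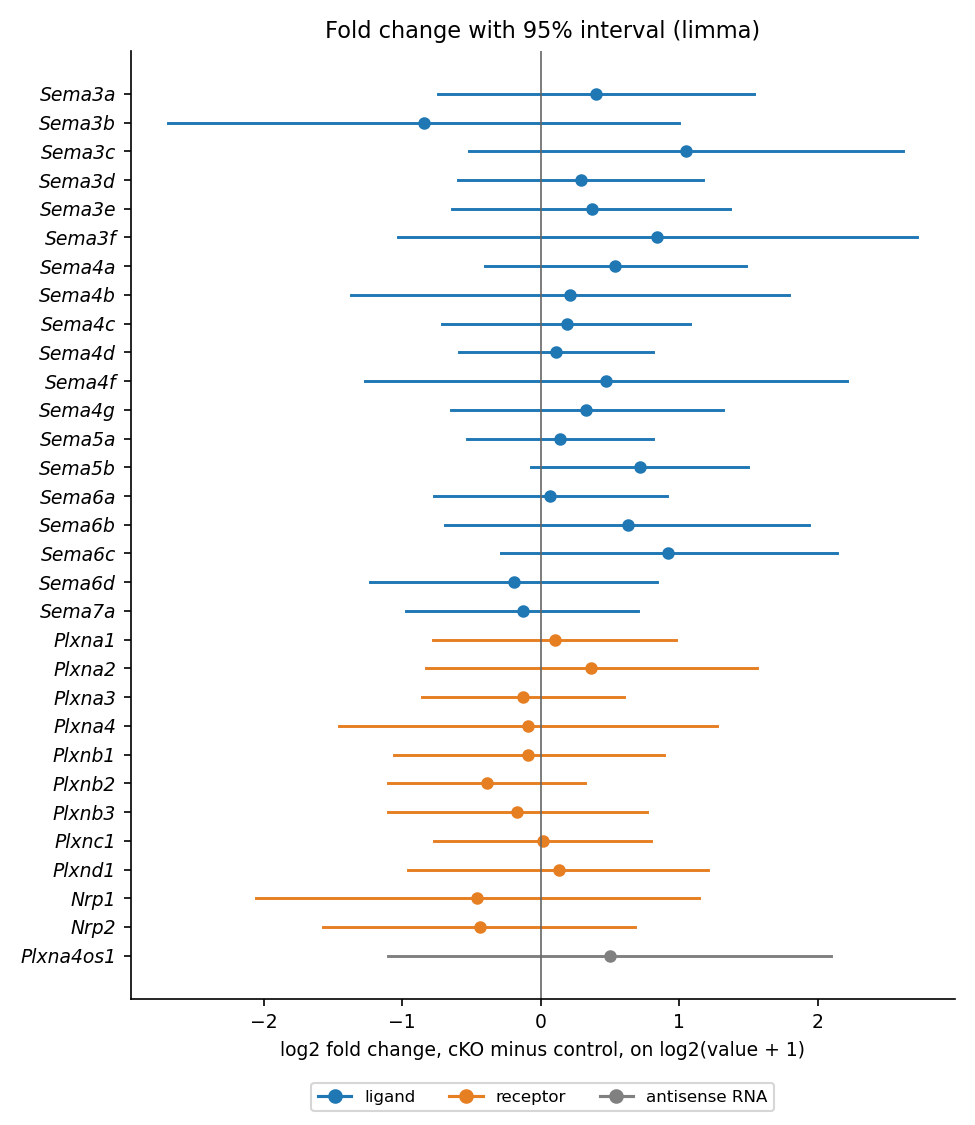
Log2 fold change of each tested member, cKO minus control, on the log2(scaled CPM + 1) scale, with its limma 95% interval; ligands are blue, receptors orange and the antisense RNA grey. Every interval crosses 0, and that of Sema5b, which ends at -0.07, crosses it by the least.

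The secreted class 3 semaphorins, which repel or attract axons and vessels through neuropilins or, for Sema3e, through Plxnd1 alone, had 7 members, of which Sema3g was too low to test. None of the 6 tested was called, 5 had a positive fold change (cKO over control), and their median was 0.38 against -0.02 over all tested genes. Sema3c had 11.4, 48.4 and 35.2 scaled CPM in cKO and 25.3, 4.41 and 16.5 scaled CPM in control libraries. Its groups overlapped, with the highest value in cKO replicate 2 and the lowest in control replicate 2. Its log2 fold change was 1.05 (SE 0.71, 95% interval -0.52 to 2.62, limma unadjusted p 0.167), and its sign turned without both libraries numbered 2. Sema3b was the only class 3 gene on the negative side, with 7.005, 0 and 2.40 scaled CPM in cKO and 3.87, 7.14 and 2.94 scaled CPM in control libraries. Its value of 0 in cKO replicate 2 is below the level that 3 reads give there, 0.303 at most over these libraries. The fold change of Sema3b was -0.84 (SE 0.83, limma unadjusted p 0.335), and its sign also turned without both libraries numbered 2. Sema3d, the class 3 gene with the highest level per kb, averaged 169 ± 74.8 scaled CPM in cKO and 129 ± 29.5 in control libraries, and ran from 85.4 in cKO replicate 3 to 230.1 in cKO replicate 1, with a log2 fold change of 0.29 (SE 0.40). Sema3a, the classical collapse factor of growth cones, ran from 15.9 to 64.6 scaled CPM, Sema3e from 17.4 to 50.9 and Sema3f, a ligand of Nrp2, from 1.94 to 29.8 scaled CPM. The lowest Sema3a and Sema3f values were both in control libraries and their highest in cKO libraries, in replicates 3 and 2 of cKO.

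Class 4 semaphorins span the membrane and bind mainly class B plexins. All 6 were tested, none was called, and all had a positive fold change, with a median of 0.27 and a range from 0.11 to 0.54 (log2). These signs did not hold throughout, since those of Sema4b, Sema4c, Sema4d and Sema4f each turned when at least 1 library was left out. Sema4a, which also acts on immune cells, had 28.7, 52.7 and 33.1 scaled CPM in cKO and 26.3, 34.0 and 17.7 scaled CPM in control libraries. Control replicate 2 stood above 2 of the cKO libraries, so the groups overlapped. The log2 fold change of Sema4a was 0.54 (SE 0.42, limma unadjusted p 0.233). Sema4d, the ligand of Plxnb1 that oligodendrocytes also make, had the highest class 4 level per kb and averaged 172 ± 49.3 scaled CPM in cKO and 154 ± 9.21 in control libraries. Sema4f varied by 9.81-fold, between 8.83 scaled CPM in cKO replicate 1 and 86.6 in cKO replicate 2, and its log2 fold change was 0.47 (SE 0.78). Sema4b ran from 6.67 to 44.9, Sema4c from 20.4 to 39.4 and Sema4g from 14.2 to 31.2 scaled CPM, each with overlapping groups.

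Both class 5 semaphorins, membrane proteins with thrombospondin repeats, had positive fold changes. Sema5b (chr16:35541145-35664732, plus strand, mm10) had 52.2, 54.3 and 38.9 scaled CPM in cKO and 33.6, 26.6 and 26.7 scaled CPM in control libraries. All 3 cKO libraries stood above all 3 control libraries, by means of 48.5 ± 8.34 in cKO and 28.9 ± 3.99 in control libraries (SD, n = 3 each). Among members this was the smallest unadjusted p, yet it did not pass. The log2 fold change was 0.72 (SE 0.35, lower end of the 95% interval -0.07), with an unadjusted p of 0.0692 by limma, 0.0586 by edgeR and 0.0557 by DESeq2. Its fold change lay between 0.58 and 0.86 over the 16 alternatives tried, of which changed filters and the replicate block cannot move it. The ependymal and choroid plexus marker sum also stood higher in every cKO library, and its part in the Sema5b values was not tested. Sema5a averaged 179 ± 35.01 scaled CPM in cKO and 163 ± 31.1 in control libraries, with overlapping groups and a log2 fold change of 0.14 (SE 0.30).

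Class 6 semaphorins act as ligands of class A plexins and, by their own intracellular part, as receptors. None of 4 was called, and 3 had a positive fold change. Sema6d had 733, 222 and 253 scaled CPM in cKO and 554, 305 and 365 scaled CPM in control libraries. Replicate 1 was the highest library of each label, and the other cKO libraries lay below every control library. Its log2 fold change was -0.19 (SE 0.47, limma unadjusted p 0.687). It was -0.73 without cKO replicate 1 and -0.38 without control replicate 2, and positive without cKO replicate 2 (0.12), cKO replicate 3 (0.03) or control replicate 1 (0.05). The span of the gene overlaps 4930517E11Rik and 4930583P06Rik on the opposite strand. Whether their exons overlap was not checked, and with no strand setting given, reads of any shared exon could not be told apart. Sema6a, which is known in oligodendrocytes as well as neurons, had 303, 347 and 146 scaled CPM in cKO and 240.2, 187 and 297 scaled CPM in control libraries. Here cKO held both the highest and the lowest value, and the fold change was 0.07 (log2, SE 0.38). Sema6c had 12.6, 22.8 and 20.3 scaled CPM in cKO and 7.93, 5.96 and 15.2 scaled CPM in control libraries. Only cKO replicate 1 lay within the control range, and the log2 fold change was 0.92 (SE 0.55, 95% interval -0.29 to 2.14, limma unadjusted p 0.12). Sema6b averaged 67.2 ± 41.6 scaled CPM in cKO and 36.8 ± 14.6 in control libraries, with 19.1 in cKO replicate 1 against 91.2 and 91.3 in the other cKO libraries, and a log2 fold change of 0.63 (SE 0.59). Sema7a, anchored to the membrane by a lipid and a ligand of Plxnc1 and of integrins, averaged 80.8 ± 35.6 in cKO and 84.7 ± 19.6 scaled CPM in control libraries.

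Of the 11 receptors none was called, 4 had a positive and 7 a negative fold change, and their median was -0.09 with a range from -0.46 to 0.36. The class A plexins carry class 6 signals directly and class 3 signals with neuropilins. Plxna1 had 90.9, 161 and 224 scaled CPM in cKO and 105, 200.4 and 126 scaled CPM in control libraries. Replicate 1 was lowest under each label, the groups overlapped, and the log2 fold change was 0.10 (SE 0.40). Plxna2 ran from 65.4 to 333 scaled CPM and Plxna4 from 34.0 to 213, both with the lowest value in cKO replicate 1 and the highest in another cKO library. Plxna3 varied least among the class A plexins, from 39.1 to 56.0 scaled CPM. The antisense Plxna4os1 had 71, 7 and 26 reads in cKO and 5, 3 and 38 reads in control libraries. Whether its exons overlap those of Plxna4 was not checked, and without a strand setting reads of any shared exon could not be told apart.

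Among the class B plexins, whose ligands are mainly class 4 semaphorins and Sema5a, all 3 had a negative fold change by limma. Plxnb2, expressed in progenitors, glia and macrophages (chr15:89155549-89180788, minus strand, mm10), had 94.5, 58.4 and 102.1 scaled CPM in cKO and 106, 102.1 and 118 scaled CPM in control libraries. The groups did not overlap but met almost at the same value, 102.07 in cKO replicate 3 and 102.10 in control replicate 2. The means were 84.99 ± 23.4 in cKO and 109 ± 8.43 in control libraries, with a log2 fold change of -0.39 (SE 0.32, 95% interval -1.10 to 0.32, limma unadjusted p 0.247), which was -0.14 without cKO replicate 2. Plxnb3 had 531, 293 and 157 scaled CPM in cKO and 365, 308 and 308 scaled CPM in control libraries. The cKO libraries lay on either side of the closely spaced control libraries. Its means were equal to 3 digits, 327 ± 189 in cKO and 327 ± 33.1 in control libraries, and its log2 fold change was -0.17 (SE 0.42, 95% interval -1.10 to 0.77) by limma and 0.00 by edgeR, with a positive sign without cKO replicate 3. Plxnb1, the receptor of Sema4d, averaged 78.2 ± 39.1 scaled CPM in cKO and 74.3 ± 6.84 in control libraries, and its sign was positive by edgeR and DESeq2 and negative by limma. Plxnc1, the receptor of Sema7a, averaged 51.6 ± 9.66 in cKO and 51.5 ± 13.0 scaled CPM in control libraries. Plxnd1, the receptor of Sema3e in vessels and neurons, averaged 123 ± 53.4 in cKO and 117 ± 65.0 scaled CPM in control libraries.

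The neuropilins also bind vascular endothelial growth factor, and both had negative fold changes. Nrp1 (chr8:128358604-128503363, plus strand, mm10) had 31.7, 6.16 and 31.3 scaled CPM in cKO and 63.0, 14.4 and 18.9 scaled CPM in control libraries. The groups overlapped, and replicate 2 was the lowest and replicate 1 the highest library of each label. Its log2 fold change of -0.46 (SE 0.72, 95% interval -2.06 to 1.14, limma unadjusted p 0.537) turned its sign without cKO replicate 2 or without control replicate 1. Nrp2 (chr1:62703285-62818695, plus strand) had 27.9, 12.02 and 18.4 scaled CPM in cKO and 28.3, 15.2 and 37.6 scaled CPM in control libraries, again overlapping. Its log2 fold change was -0.44 (SE 0.51, limma unadjusted p 0.40). It stayed negative under every alternative tried but was -0.16 without cKO replicate 2, -0.17 without control replicate 3, -0.73 without cKO replicate 1 and -0.79 without control replicate 2. The summed mural cell and fibroblast markers were, like Nrp1, lowest in replicate 2 and highest in replicate 1 of each label, at 3121, 263 and 2783 in cKO and 5116, 497 and 711 in control libraries. So were the summed endothelial markers, at 139, 106 and 122 in cKO and 145, 46.6 and 82.0 in control libraries. Nrp2 was also lowest in replicate 2 of each label, but highest in replicate 1 of cKO and replicate 3 of control. The part of these markers in the neuropilin values was not tested.

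Ligands were then set against receptors. The median log2 fold change was 0.33 over the 19 tested ligands, 16 of them positive, and -0.09 over the 11 receptors, beside -0.02 over all tested genes, of which 48.0% were positive. Without cKO replicate 1 these medians were 0.60 and -0.28. The receptor median was also -0.14 without cKO replicate 2, -0.15 without cKO replicate 3, -0.16 without control replicate 1 and -0.03 without control replicate 3. Within labels, the median log2 level of a library had a pooled SD of 0.42 for ligands and 0.37 for receptors. In size these spreads exceed the fold change medians of 0.33 and -0.09. They are spreads of single libraries and not errors of a difference between group means, so they do not test these medians. All genes share the same libraries, so their signs are not separate replicates. Summed per kb, ligands gave 233, 228 and 187 scaled CPM per kb in cKO and 192, 168 and 184 in control libraries. The receptor sums were 147, 144 and 133 in cKO and 127, 154 and 135 in control libraries. In every library the ligand sum was thus above the receptor sum. The ligand sum adds 20 genes and the receptor sum 11, so this order does not say that ligand genes were higher than receptor genes. The ratio of the ligand sum to the receptor sum was 1.58, 1.58 and 1.41 in cKO and 1.52, 1.09 and 1.36 in control libraries. The groups overlapped, since control replicate 1 lay above cKO replicate 3. Mean ratios were 1.52 ± 0.0965 in cKO and 1.32 ± 0.217 in control libraries, a difference of 0.199, which was 0.0821 without control replicate 2 and 0.360 without Sema6d and Plxnb3. Sums by class overlapped as well. Class 3 gave 34.8, 40.3 and 28.6 scaled CPM per kb in cKO and 30.6, 22.0 and 22.2 in control libraries, and class B plexins gave 105, 63.1 and 40.9 in cKO and 77.02, 68.4 and 71.2 in control libraries.

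**Figure D3:**
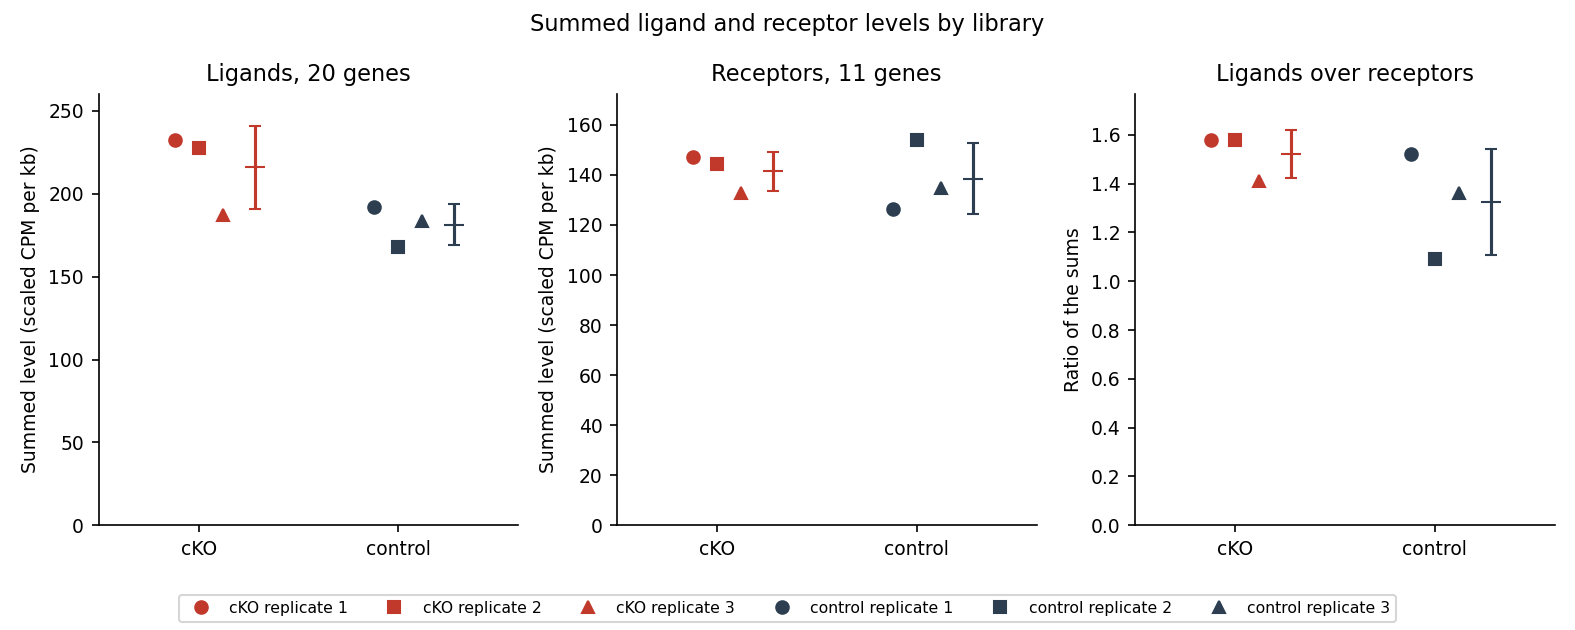
Summed level of 20 ligands, summed level of 11 receptors (both in scaled CPM per kb of exon) and their ratio in each library, cKO left of control; the bars give the mean and SD of 3 libraries. The ratio, of sums over unlike numbers of genes, is above 1 in all 6 libraries, and control replicate 1, at 1.52, lies among the cKO libraries.

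For 10 known ligand and receptor pairs, a list chosen after the data had been seen, the ligand level was divided by the receptor level within each library, both per kb. In 4 pairs the ligand was higher in all 6 libraries, in 3 the receptor was, and 3 were mixed. Sema4d was 2.23 to 4.36 times Plxnb1, Sema7a was 2.37 to 5.10 times Plxnc1, and Sema6a was 1.39 to 9.05 times Plxna2 and 1.10 to 14.3 times Plxna4. The receptor was the higher in the pairs Sema5a with Plxnb3 (ratio 0.143 to 0.363), Sema4c with Plxnb2 (0.335 to 0.724) and Sema3e with Plxnd1 (0.0741 to 0.550). The neuropilin pairs were mixed. Sema3a was above Nrp1 in 3 of 6 libraries (ratio 0.423 to 3.41) and Sema3f above Nrp2 in 3 (0.156 to 5.65). Sema6d was above Plxna1 in 5 libraries. In no pair did the ratio per kb stay on different sides of 1 under the 2 labels. Some of these orders rested on the length. Undivided, Sema6a lay below Plxna2 and Plxna4 in cKO replicate 3, at 146 against 205 and 213 scaled CPM. It also lay below Plxna2 in control replicate 2, at 187 against 192 scaled CPM. Sema7a lay below Plxnc1 in cKO replicate 2 (50.9 against 54.3), and Sema5a above Plxnb3 in cKO replicate 3 (164 against 157). Sema4d with Plxnb1, Sema4c with Plxnb2 and Sema3e with Plxnd1 kept their order in every library. These are ratios of RNA pooled over cells, and they do not say that both partners were in the same cell.

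**Figure D4:**
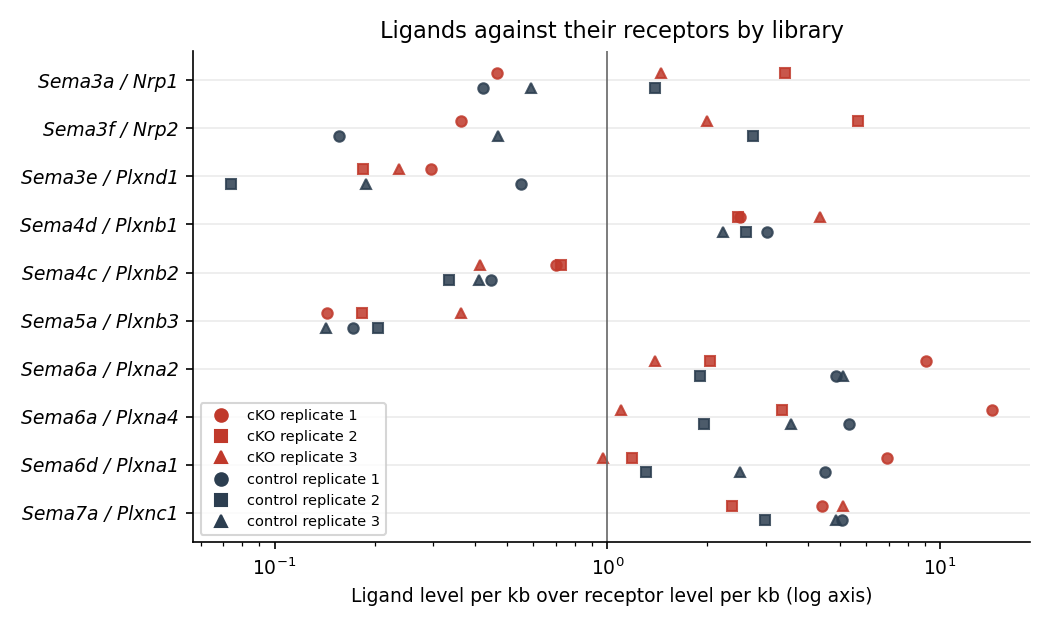
Ligand level per kb over receptor level per kb on a log axis for 10 pairs, with 1 point per library (cKO above, control below). The line marks equal levels, and Sema6a over Plxna4 spans the range from 1.10 to 14.3.

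Which library held the highest value differed from member to member. Of 31 tested members 9 had their highest value in cKO replicate 1, 10 in cKO replicate 2 and 6 in cKO replicate 3. Control replicates 1, 2 and 3 held 1, 3 and 2. Over all tested genes the shares with the highest value were 16.4%, 23.8% and 18.2% in cKO replicates 1, 2 and 3, and 11.3%, 17.4% and 12.8% in control replicates 1, 2 and 3. Each cKO library held the lowest value of 6 members, beside 15.7%, 34.3% and 12.5% of all tested genes in cKO replicates 1, 2 and 3. Control replicates 1, 2 and 3 held the lowest value of 4, 6 and 3 members, beside 8.91%, 19.0% and 9.50% of all tested genes. In cKO replicate 1 the highest were Plxnb3, Sema6d, Sema4d, Sema3d, Sema5a, Plxnb1, Sema4c, Plxna3 and Plxna4os1. The lowest there were Plxna1, Plxna2, Plxna4, Sema4b, Sema4f and Sema6b. In cKO replicate 3 the lowest were Plxnb3, Plxnb1, Plxna3, Sema4d, Sema6a and Sema3d. The oligodendrocyte marker sum was 33017, 21080 and 11403 in cKO replicates 1, 2 and 3, and 27632, 22095 and 22352 in control replicates 1, 2 and 3. The neuron marker sum was 1054, 3431 and 6658 in cKO and 2375, 3324 and 2563 in control libraries, in the same order of replicates. Thus cKO replicate 1 was highest in oligodendrocyte and lowest in neuron markers, and cKO replicate 3 the reverse. The part of these markers in the level of any member was not tested.

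**Figure D5:**
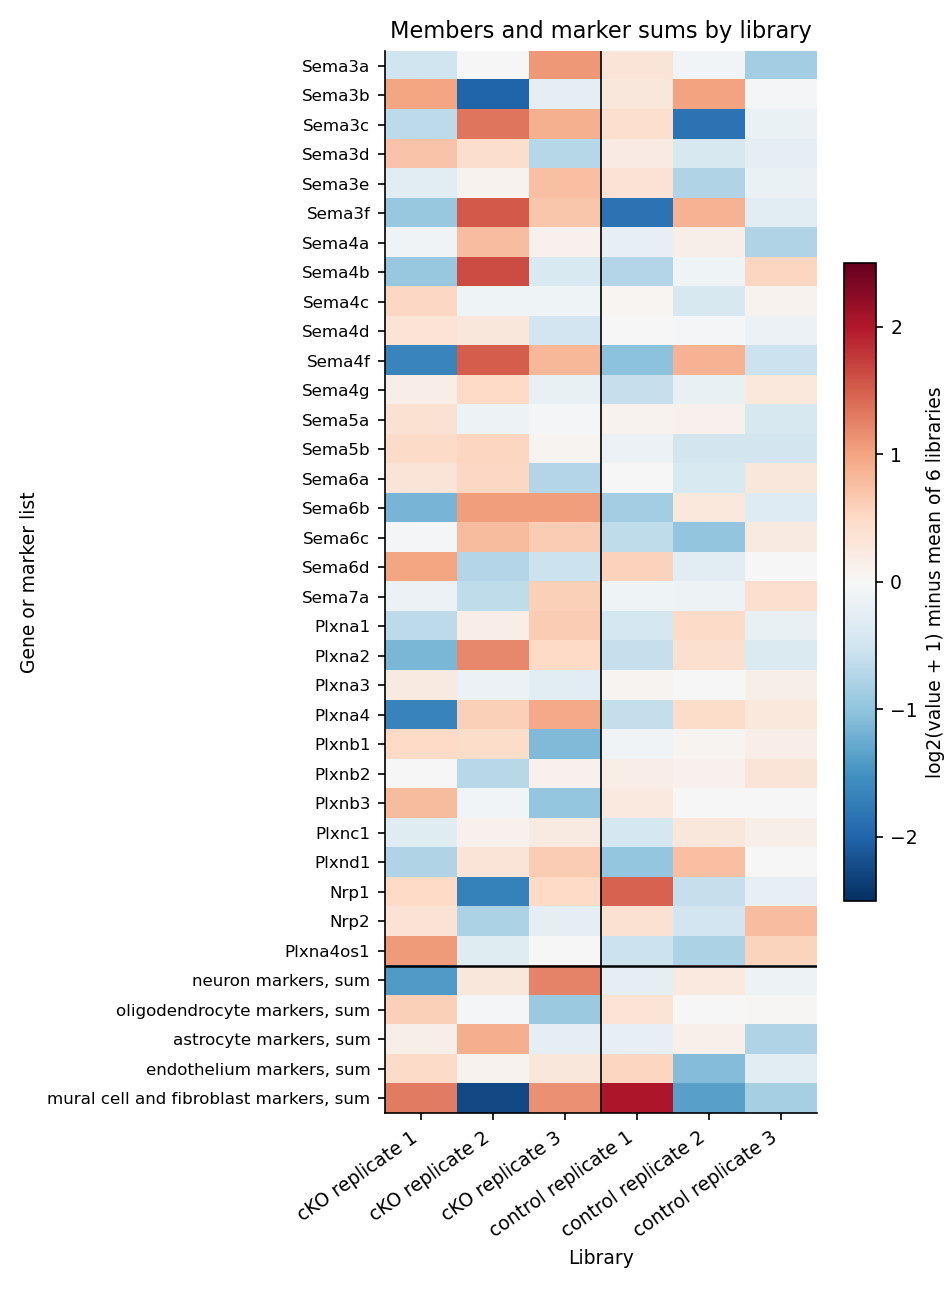
Level of each tested member and summed level of marker lists in each library as log2(scaled CPM + 1) minus the mean of 6 libraries, cKO columns left of control columns, with red above and blue below the mean. In cKO replicate 1 Plxnb3 and Sema6d are red while Plxna2, Plxna4, Sema4f and Sema6b are blue.

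Promoters are shown for members at the ends of this pattern, picked after their values were seen. Plxnb3, Sema6d and Sema3d were highest in cKO replicate 1, and Sema6b and Sema4f were lowest there. Each run is the 250 bases before the gene start from RefSeq (GRCm38.p6), 5′ to 3′ on the strand of the gene. The windows are chrX:73756853-73757102 for Plxnb3, chr2:124089719-124089968 for Sema6d and chr5:12382916-12383165 for Sema3d, all on the plus strand. They are chr17:56140344-56140593 for Sema6b and chr6:82939770-82940019 for Sema4f, both on the minus strand. Capitals mark 3 motifs on either strand, the GC box GGGCGG bound by SP factors and the SOX-type motifs ACAAAG and ACAATG, and no motifs overlapped each other in these windows.
Plxnb3: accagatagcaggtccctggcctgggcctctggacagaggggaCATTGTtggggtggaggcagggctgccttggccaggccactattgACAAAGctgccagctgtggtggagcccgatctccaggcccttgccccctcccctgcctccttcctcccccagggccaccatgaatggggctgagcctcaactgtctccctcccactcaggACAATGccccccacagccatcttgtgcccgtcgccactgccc
Sema6d: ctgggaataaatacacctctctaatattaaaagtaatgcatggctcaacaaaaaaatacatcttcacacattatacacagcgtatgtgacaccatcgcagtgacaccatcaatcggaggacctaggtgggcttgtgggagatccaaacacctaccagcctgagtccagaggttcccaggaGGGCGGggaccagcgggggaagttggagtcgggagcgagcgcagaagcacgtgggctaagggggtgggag
Sema3d: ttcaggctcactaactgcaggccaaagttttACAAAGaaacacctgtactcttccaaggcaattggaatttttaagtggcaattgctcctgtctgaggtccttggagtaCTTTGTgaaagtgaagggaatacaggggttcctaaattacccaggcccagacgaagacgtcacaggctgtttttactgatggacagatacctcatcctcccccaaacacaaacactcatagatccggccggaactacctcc
Sema6b: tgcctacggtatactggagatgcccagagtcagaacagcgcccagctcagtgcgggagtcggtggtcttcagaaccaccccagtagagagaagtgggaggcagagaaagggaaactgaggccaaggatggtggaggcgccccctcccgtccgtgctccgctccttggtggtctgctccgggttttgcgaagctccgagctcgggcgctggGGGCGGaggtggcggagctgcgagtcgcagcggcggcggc
Sema4f: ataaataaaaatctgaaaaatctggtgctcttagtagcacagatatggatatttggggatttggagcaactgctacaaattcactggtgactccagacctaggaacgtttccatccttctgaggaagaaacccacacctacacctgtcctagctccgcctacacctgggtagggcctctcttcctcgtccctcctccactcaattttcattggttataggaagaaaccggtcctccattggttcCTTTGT
The Plxnb3 window held ACAAAG 1 time, ACAATG 2 times and no GC box, and its last 13 bases lie in an annotated exon of the gene. Sema3d held ACAAAG 2 times and Sema4f 1 time, and Sema6d and Sema6b held 1 GC box each. So letters of the SOX type stood in promoters of both sets, and so did the GC box. For 26 of 32 members RefSeq listed 37 promoters, of which 27 (73.0%) held GGGCGG, 5 (13.5%) ACAAAG and 5 (13.5%) ACAATG. Over all 32851 promoters of that length the shares were 32.7%, 16.5% and 10.7%. Such matches describe the letters and not a bound site.

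Other genes of the pathway, 50 in all, were co-receptors and alternative receptors, cytoplasmic transducers and ligand-processing proteases. Of these 47 were tested and none was called by limma. At a limma unadjusted p under 0.05 there were 0, beside 0.852% of all tested genes. Fold changes were positive for 22 and negative for 25, with a median of -0.01. Of the 47, 1 was higher and 1 lower in every cKO library, beside 2.45% and 2.26% of all tested genes. Tyrobp and Trem2, partners of class A plexins on myeloid cells, and Timd2, a receptor of Sema4a, were too low to test. On the positive side, Gipc1, an adaptor that binds neuropilin and plexin tails, had 29.2, 26.4 and 26.6 scaled CPM in cKO and 16.8, 19.3 and 18.6 scaled CPM in control libraries. All cKO libraries were above all control libraries, with a log2 fold change of 0.56 (SE 0.40, limma unadjusted p 0.186). Ptk7, whose Drosophila relative off-track binds a plexin, averaged 39.4 ± 5.54 scaled CPM in cKO and 26.2 ± 11.6 in control libraries. Cdk5, a kinase in the Sema3a response, averaged 59.2 ± 25.9 in cKO and 37.8 ± 9.14 in control libraries, and Ranbp9, a scaffold bound by class A plexins, averaged 160 ± 20.9 in cKO and 123 ± 17.8 in control libraries. On the negative side, Dpysl5, of the collapsin response mediator family that relays Sema3a, had 16.6, 2.32 and 17.97 scaled CPM in cKO and 18.1, 28.1 and 21.9 scaled CPM in control libraries. All cKO libraries lay below all control libraries, by only a small step except in cKO replicate 2, and the log2 fold change was -1.17 (SE 0.69, limma unadjusted p 0.121). Kdr, the endothelial growth factor receptor that pairs with neuropilins, averaged 3.51 ± 2.94 in cKO and 7.25 ± 2.11 scaled CPM in control libraries. Mst1r, a kinase receptor that pairs with class B plexins, averaged 1.34 ± 1.88 in cKO and 2.30 ± 1.30 in control libraries. Cfl1, which severs actin filaments, averaged 435 ± 75.4 in cKO and 528 ± 78.3 scaled CPM in control libraries.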

How the data were processed

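Libraries came from Thy1-positive sorted cells of pronase-treated (75 minutes) cortex, and were made with the Ovation SoLo kit, as the labels say. Trimmomatic, HISAT2, featureCounts and edgeR, without versions, and the mm10 build are named in the submitters' processing notes; the annotation and strand setting are not given in the sources at hand. The deposited signal is a CPM rescaled per library by the authors (column totals 961962 to 1027958). All values were whole multiples of 1 step within 0.001, so read counts were recovered; the design had assumed plain CPM, and its test was kept. Exon lengths, positions and overlaps came from GENCODE on GRCm38. Lengths were merged over all annotated exons of a gene, and overlaps were taken from whole gene spans.

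Genes reaching 1 scaled CPM in 3 or more libraries were tested with limma 3.58.1 (R 4.3.3, mean-variance trend) on log2(value + 1), a scale that understates changes of low genes; p-values were Benjamini-Hochberg adjusted over all 14796 genes and called under 0.05. edgeR 4.0.16 and DESeq2 1.42.0 on recovered counts were alternatives, beside other pseudocounts, filters, normalizations, a replicate block and leaving out libraries. A level of 3 reads was 0.126 to 0.303 scaled CPM. That floor and the Poisson intervals of Padi4 cover counting error only, while the limma intervals of fold changes rest on the spread between libraries.

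Members and gene lists were chosen with earlier results of these data known. Values in every library are given for the pair of highest ligands and of highest receptors per kb, the 4 members per direction with the smallest unadjusted p and both neuropilins; of the pathway lists, up to 4 genes per direction by unadjusted p are named. Other members singled out for their pattern by library were chosen after their values were seen. No batch was named in the labels.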

Additional observations from a re-analysis of the deposited data

How the results depend on the processing

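No member was called under any alternative tried. Over all genes DESeq2 called 7, against 0 by limma and edgeR. Without a filter on low values, 1 member, Sema5b, had an unadjusted p under 0.05, beside 1.18% of all genes, and leaving out single libraries gave 0 to 4 such members; the 4, without cKO replicate 1, were Plxna2, Sema6b, Sema3c and Sema4f, beside 6.73% of all genes. Members whose labels did not overlap numbered 2 in the main analysis and 2 to 11 when single libraries were left out, which cannot make separated groups overlap. They were 11 of 30 without cKO replicate 1 (22.4% of all genes), 7 of 30 without cKO replicate 3 (14.4%), and 4 without control replicate 2 (11.7%) or control replicate 3 (9.2%). They stayed at 2 of 31 without cKO replicate 2 (9.65%) or control replicate 1 (13.3%). Without both libraries numbered 2, an alternative chosen after seeing the data, they were 4 (19.8%), and the ligand and receptor medians 0.15 and -0.14. The ligand median ran from 0.22 to 0.60 and the receptor median from -0.28 to -0.03 over single libraries left out. By edgeR these medians were 0.38 and 0.00, and by DESeq2 0.36 and -0.01. Of 31 tested members 12 kept their sign under every alternative and 19 did not. Changed filters and the replicate block leave each fold change as it is, so these alternatives could not turn a sign. The log2 fold change ran from 0.50 to 1.27 for Sema6c, 0.29 to 0.75 for Sema4a, -0.02 to 1.64 for Sema3c, -1.87 to 0.25 for Sema3b, -0.34 to 0.45 for Sema6a, -0.19 to 0.45 for Plxna1 and -0.60 to 0.28 for Plxnb3. The ratio of ligands to receptors differed by 0.115 without division by length, 0.138 without class 3 and 0.181 without neuropilins. Same-numbered libraries had correlations of deviations of 0.49, 0.30 and 0.03, and the other cKO and control pairs -0.40 to 0.03. Each cKO library correlated best with the control library of its number, though control replicate 3 had 0.03 with cKO replicates 2 and 3 alike. The labels do not say whether the numbers pair libraries, these values do not settle it, and the main test left them unpaired. With the replicate number as a block 0 genes and 0 members were called by limma. In this balanced design the block cannot change the fold changes or the overlap of the groups. The 2 members that did not overlap and the medians of 0.33 and -0.09 were therefore those of the main analysis. Genes at a limma unadjusted p under 0.05 numbered 307 with the block and 126 without it, with 0 members in either case. Depth limits Sema3g, Sema3b and Plxna4os1 most.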
